A study of Mus musculus with 4 samples.

Results

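The tachykinin and kisspeptin genes of this series are *Tac1*, *Tac2*, *Tacr1*, *Tacr3*, *Kiss1* and *Kiss1r*, which are 6 of the 31053 genes in the count matrices. They were chosen by symbol and not by a cut on measured values, but with earlier results of these data known. They filled 7 rows because *Kiss1* stood under 2 gene identifiers. 5 of the 6 were found in at least 5 kept nuclei, as were 19946 genes of the whole series, and *Kiss1* was not. The 4 libraries are single-nucleus RNA libraries of the hypothalamic arcuate nucleus (ARC) of male wildtype C57BL/6J mice, 10 weeks old, after 3 weeks of treatment. DOCA-salt mice carried a pellet of deoxycorticosterone acetate (DOCA) and had a NaCl solution to drink, and Sham mice went through the sham treatment. Each group had 2 libraries, and each library was a pool of nuclei from the tissue punches of 2 mice, so a pool and not a mouse is the replicate. DOCA-salt 1, DOCA-salt 2, Sham 1 and Sham 2 held 10307, 18907, 2203 and 7759 kept nuclei with medians of 2401, 2534, 8215 and 3278 unique molecular identifiers (UMIs, each a captured transcript) a nucleus. Values for the libraries are given in this order throughout.

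Tachykinins are short peptides that share their C-terminal end and act on G protein-coupled receptors that signal through Gq. *Tac1* encodes substance P and neurokinin A, which favour the receptors encoded by *Tacr1* and *Tacr2*, and *Tac2* encodes neurokinin B, which favours the receptor encoded by *Tacr3*. In the ARC a set of neurons called KNDy neurons makes kisspeptin (*Kiss1*), neurokinin B and dynorphin (*Pdyn*) together. Neurokinin B acts on these same cells through *Tacr3*, and kisspeptin drives the neurons that make gonadotropin-releasing hormone (*Gnrh1*) through *Kiss1r*.

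The stretches of coding sequence below end each mature peptide and are shown because they let the tachykinins be compared with each other and with kisspeptin. They were read from the GENCODE vM21 transcripts of GRCm38 (mm10), 5′ to 3′ on the plus strand. Capitals mark the codons of the C-terminal core, 15 bases in the tachykinins and 9 bases in kisspeptin.

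*Tac1* (substance P, chr6:7556735-7556764, exonic, codons 59 to 68): cccaagcctcagcagTTCTTTGGATTAATG
*Tac1* (neurokinin A, chr6:7559101-7559130, exonic, codons 98 to 107): cataaaacagattccTTTGTTGGACTAATG
*Tac2* (neurokinin B, chr10:127729116-127729145, exonic, codons 82 to 91): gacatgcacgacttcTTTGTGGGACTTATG
*Kiss1* (kisspeptin, chr1:133329580-133329609, exonic, codons 106 to 115): tacaactggaactccttcggcCTGCGCTAC

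The neurokinin A and neurokinin B stretches were identical at 13 of 15 core bases and at 19 of all 30. The substance P stretch matched neurokinin A at 12 core bases and neurokinin B at 10. The kisspeptin stretch matched the tachykinin ones at 7 to 11 of 30 bases. Counts in this assay come from the 3′ ends of transcripts, so they do not separate the peptides that *Tac1* encodes. In the vM21 annotation *Tac1* lies at chr6:7554879-7565834, *Tac2* at chr10:127724478-127731768, *Tacr1* at chr6:82402334-82560104, *Tacr3* at chr3:134829007-134934579 and *Kiss1r* at chr10:79916971-79922273, all on the plus strand and none sharing exon bases with another gene of that strand. *Kiss1r* overlaps exons of *R3hdm4* on the opposite strand. *Kiss1* (chr1:133321875-133329901) shares all of its 779 exon bases with overlapping models of *Gm28040* and *Golt1a*, and the other identifier named *Kiss1* in the matrices shares 78.7% of its 741 exon bases.

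The pools differed in what they held before any gene was compared. All 7 neuronal markers were found in the neurons of each library, at 9766 to 13742 CPM in sum (a gene's UMIs as parts of all UMIs of the same nuclei in that library, scaled to the usual common total). DOCA-salt 2 stood apart in its neurons, with 323 nuclei gated on *Pmch*, 214 on *Hcrt* and 494 on *Oxt* or *Avp*, genes of the neighbouring hypothalamus, where the other 3 pools had at most 13, 3 and 35. The pools held 6344, 12452, 1327 and 4274 neurons. For *Oxt* or *Avp*, Sham 1 had 33 gated nuclei among its 1327 neurons, so as a share it lay nearer to DOCA-salt 2 than the counts show. DOCA-salt 2 also had 42 *Agrp*/*Npy*-gated nuclei, typical of the ARC, against 422 in DOCA-salt 1. The other pools were not alike either. Gates for striatal-type neurons held 205, 136, 16 and 64 nuclei, and those for cholinergic neurons 49, 0, 1 and 4. The gate on *Nr5a1* or *Fezf1* held 105, 333, 38 and 172 nuclei. Pairs of libraries shared 5 to 49 cell barcodes.

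*Kiss1* was almost absent from the counts. It had 0, 0, 0 and 2 UMIs over all kept nuclei, both under the identifier that vM21 calls *Gm28040*. A count of 0 allows up to 0.0801, 0.0432 and 0.141 CPM at 3 UMIs in the first 3 libraries, and these limits, like all intervals here, cover counting error only. One of the 2 UMIs lay in a nucleus that met the KNDy-type gate described below, and the other lay in an ungated nucleus. The overlapping *Golt1a* had 0, 2, 0 and 1 UMIs and the second *Gm28040* row had 0 in every library, so few reads of the locus were counted under any name. Because reads shared by overlapping models can be left out of a count, these values say only that *Kiss1* is not measured here. The remaining tachykinin genes were as rare: *Tac4*, a further tachykinin ligand, had 1, 0, 0 and 1 UMIs in neurons and *Tacr2*, the neurokinin A receptor, had 1, 0, 1 and 0.

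The other 5 genes were found in every library, and per UMI they were higher in neurons than in oligodendrocytes with astrocytes. Nuclei were sorted into neurons (6344, 12452, 1327 and 4274 nuclei) and other cell types by marker lists, and oligodendrocytes and astrocytes together (636, 1754, 170 and 690 nuclei) served as cells that should lack these genes. *Tac1* stood at 420, 114, 222 and 95.7 CPM in neurons and at 225, 53.6, 140 and 58.0 CPM in oligodendrocytes and astrocytes. In both cell sets *Tac1* was highest in DOCA-salt 1 and next in Sham 1, and a level at or under that of the glia is read here as background.

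*Tac2* was at 84.5, 71.1, 69.8 and 74.8 CPM in neurons and at 22.6, 25.7, 38.3 and 21.5 CPM in the glia. *Tacr1*, the substance P receptor, was at 17.5, 15.6, 17.8 and 16.4 CPM in neurons against 13, 8.43, 13.8 and 8.13 CPM. *Kiss1r*, the kisspeptin receptor, was at 6.36, 6.87, 7.84 and 7.02 CPM in neurons against 4.35, 2.11, 2.13 and 1.74 CPM. These 3 genes differed little between libraries, whereas *Tac1* was highest in DOCA-salt 1 and next in Sham 1, so its groups overlapped. *Tacr3*, the neurokinin B receptor, was at 14.7, 15.6, 5.88 and 6.52 CPM in neurons and at 2.61, 9.28, 3.20 and 3.48 CPM in the glia. Its DOCA-salt values lay above both Sham values in neurons, and the glial value of DOCA-salt 2 also lay above the other 3.

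**Figure D1:**
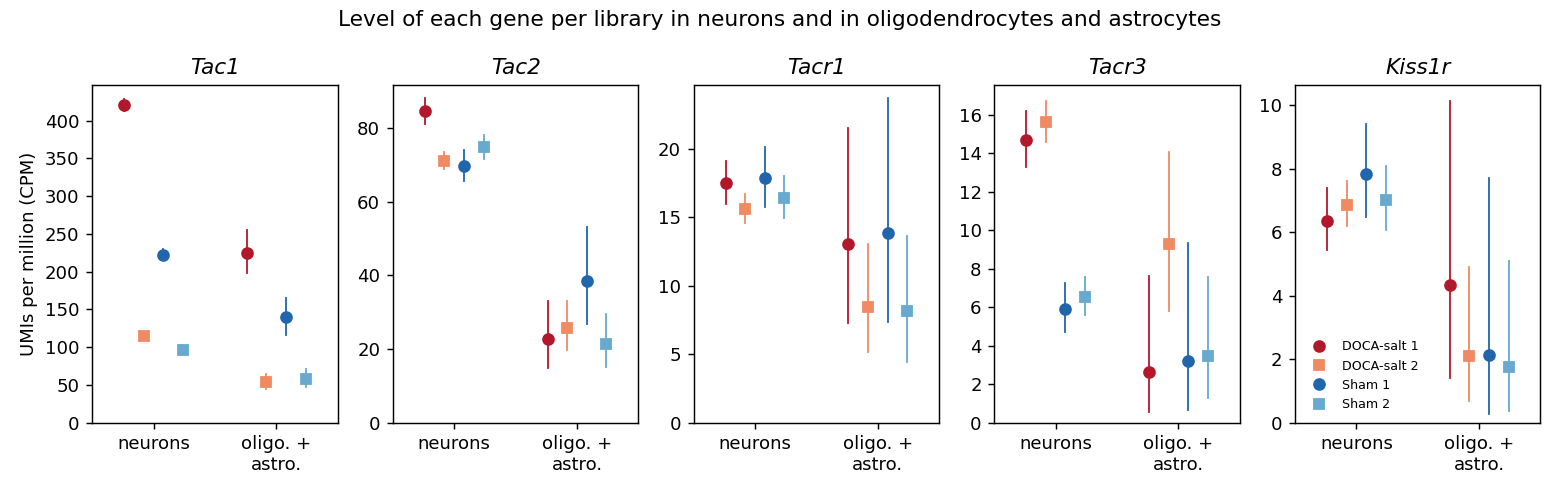
Level of 5 genes (y axis, CPM; each panel has its own scale from 0) in neurons and in oligodendrocytes with astrocytes (x axis), with 1 point per library and bars for the 95% exact Poisson interval of the count. *Tac1* ranged from 95.7 to 420 CPM in neurons without a gap between the groups, and *Tacr3* was at 14.7 and 15.6 CPM in DOCA-salt neurons and at 5.88 and 6.52 CPM in Sham neurons.

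The share of neurons with at least 1 UMI was 32.9%, 17.3%, 60.4% and 20.0% for *Tac1*, 8.91%, 9.46%, 25.2% and 15.2% for *Tac2*, 6.07%, 5.85%, 14.3% and 8.31% for *Tacr1*, 4.70%, 4.09%, 5.35% and 3.39% for *Tacr3*, and 2.60%, 2.88%, 8.21% and 4.40% for *Kiss1r*. The corresponding shares of oligodendrocytes and astrocytes were 19.3%, 6.16%, 48.2% and 9.57% for *Tac1*, and between 0.285% and 13.5% for the other 4 genes. Sham 1 was highest for each gene and also had the deepest nuclei, with a median of 10355 UMIs a neuron against 3111, 3077 and 5087.5 in the other libraries, and 4923.5 a glial nucleus against 1214.5, 1013 and 1873.5. After each nucleus was thinned to 1000 UMIs, the neuronal shares were 18.3%, 7.48%, 14.8% and 6.04% for *Tac1*, 4.61%, 4.39%, 4.31% and 5.16% for *Tac2* and 1.31%, 0.986%, 0.453% and 0.661% for *Tacr3*. The thinned shares of *Tacr1* lay between 1.64% and 1.71% in all 4 libraries.

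The next comparison asked whether DOCA-salt treatment changed these genes, with counts summed over nuclei per library. In such sums fewer cells of a type and less RNA per cell cannot be told apart. Of the 5 genes tested, none passed an adjusted p of 0.05 in edgeR's quasi-likelihood test, in all nuclei or in neurons, and neither did any other gene (0% of 16564 and 0% of 15860). At an unadjusted p under 0.05 the test gave 1399 and 1264 genes, and 1 of the 5 members, *Tacr3*, in each. With 2 pools a group an exact two-sided permutation test of 1 gene cannot go below 0.33.

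*Tacr3* had a log2 difference of 1.36 (SE 0.24) between DOCA-salt and Sham in all nuclei, where its levels were 13.1, 16.9, 5.50 and 5.95 CPM (edgeR, adjusted p = 0.572). In neurons the difference was 1.26 (SE 0.22; edgeR, adjusted p = 0.623). The groups did not overlap for *Tacr3*, nor did they for 43.9% of the 15201 genes with at least 100 UMIs in all nuclei and 43.8% of 14489 in neurons. The libraries also differed in the nuclei that carry *Tacr3*. The *Pmch* gate held 13, 323, 4 and 7 nuclei, and the KNDy-type gate 236, 39, 35 and 132. In neurons without both gates *Tacr3* was at 11.1, 8.14, 5.32 and 5.26 CPM, a log2 difference of 0.82 (SE 0.26; edgeR, adjusted p = 0.618), with 0% of 15800 genes called. The adjusted p of *Tacr3* ran from 0.00267 to 1 in all nuclei and from 0.00749 to 1 in neurons over 13 alternatives each, and it passed in 4 and in 3 of them, while the log2 difference stayed between 1.10 and 1.56 and between 1.16 and 1.49. The alternatives in which it passed included DESeq2 and leaving out DOCA-salt 1 (log2 difference 1.56 in all nuclei and 1.33 in neurons) and, in all nuclei, leaving out DOCA-salt 2 (1.10). Leaving out either pool left the other alone in its group and called many other genes in neurons too. The 13 alternatives also included a crossed replicate block that was added after the data were seen. The shares of all genes called with DESeq2, and in all nuclei without a pool, are not given here. Whether these passes are particular to *Tacr3* can therefore not be told, and they are not read as a result.

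*Tac1* differed by 0.68 on the log2 scale in neurons (SE 0.62, adjusted p = 0.770), and its spread between the pools of a group exceeded that difference. For *Tac2* (0.07, SE 0.15), *Tacr1* (−0.09, SE 0.18) and *Kiss1r* (−0.20, SE 0.25) the differences were smaller than or close to their standard errors. Within gated classes that had 10 nuclei in every library, 0 of 45 tests of the 5 genes passed, against 18 of 132302 (0.0136%) over all genes. The smallest unadjusted p among them was that of *Tac1* in *Ghrh*-gated neurons, at 146, 86.0, 63.2 and 44.9 CPM (log2 difference 1.28, SE 0.33; edgeR, adjusted p = 0.480). These levels lay below the glial background in all libraries but DOCA-salt 2.

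Of the 32 other genes of these pathways, 30 could be tested in neurons and 0 passed, with a median log2 difference of −0.07 against 0.02 over all genes. *Gnrh1* had the smallest p of the list (log2 difference −4.02, SE 1.06; edgeR, adjusted p = 0.623). It was at 0.818, 1.09, 2.30 and 28.7 CPM in neurons, and 19 *Gnrh1*-gated nuclei were found in Sham 2 and 0 in the other libraries. All 13 genes of the list of KNDy partners were tested, and 3 of them had a positive difference, *Oprk1*, the receptor of dynorphin, at 0.23 and *Pdyn* at 0.16 among them. *Esr1*, the estrogen receptor alpha gene, had a difference of −0.73 (SE 0.39, adjusted p = 0.661).

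Neurons were then sorted into classes by marker genes that held none of the 6 genes, to see where each gene is used. A gate asked for at least 3 UMIs of its genes and for 5 times the amount expected from the glial level, and gates named "list" or "type" asked for several different genes of a list. The KNDy-type gate asked for 3 of *Pdyn*, *Esr1*, *Prlr*, *Nhlh2*, *Sox14*, *Rxfp1* and *Nr5a2*. Each class was compared with all other neurons of the same libraries, with library as a block. Of 75 tests of the 5 genes in 15 classes, 8 passed as higher and 22 as lower (edgeR, adjusted p under 0.05). With 1 more in GABAergic against glutamatergic neurons this made 31 of 80, against 4.39% over all genes and classes, 2.18% higher and 2.2% lower. *Kiss1r* passed in none of the 15.

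**Figure D2:**
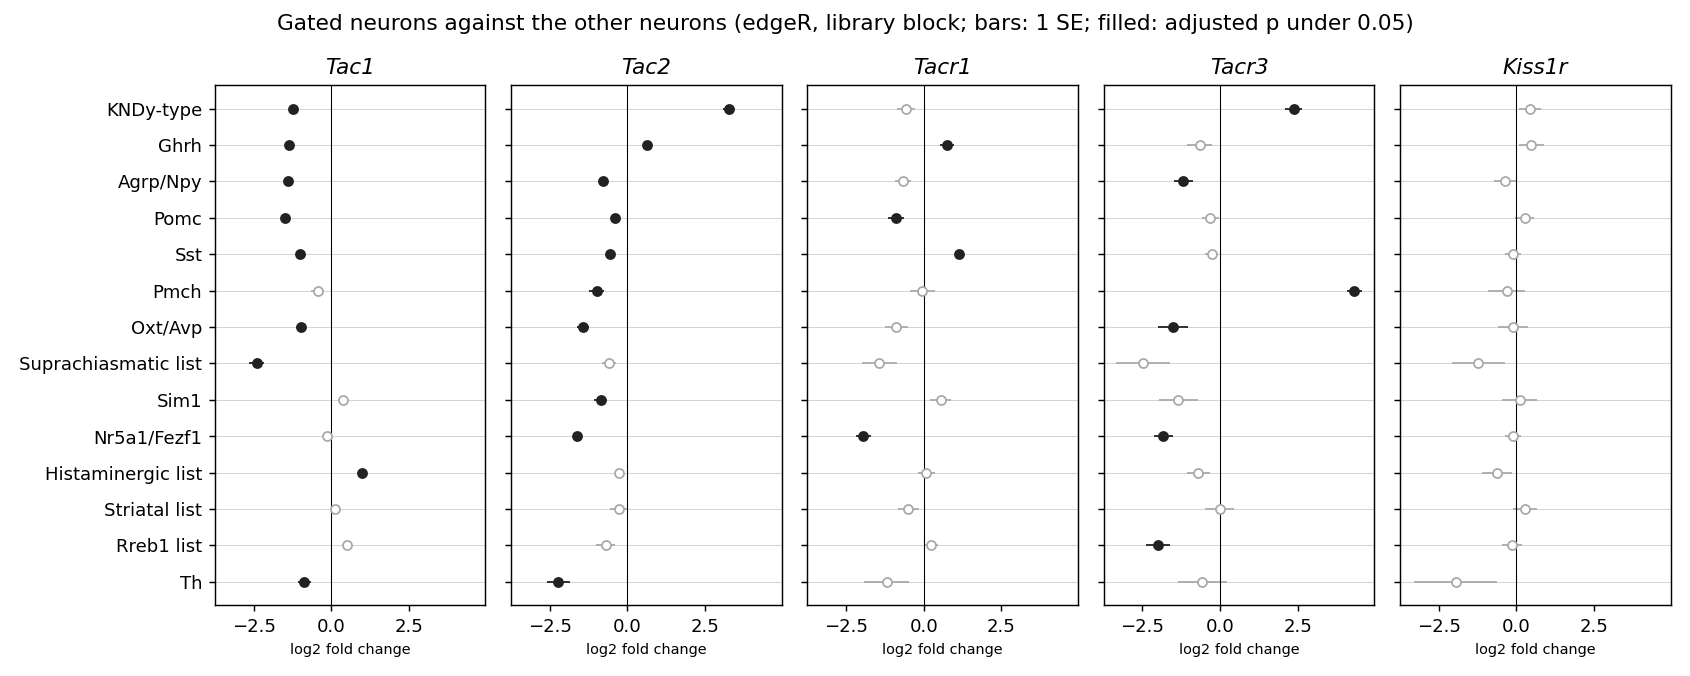
Log2 fold change (x axis) of each gene in gated neurons against the other neurons of the same libraries, by class (y axis), from edgeR with library as a block. Bars are 1 SE and filled points have an adjusted p under 0.05. *Tac2* and *Tacr3* stood at 3.26 and 2.37 in the KNDy-type gate, *Tacr3* at 4.33 in the *Pmch* gate and *Tacr1* at 1.14 in the *Sst* gate, and no point of *Kiss1r* is filled.

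The neurokinin B gene was higher in KNDy-type neurons of every library, and its receptor gene in all but DOCA-salt 2. *Tac2* was at 1043, 162, 267 and 682 CPM there, the highest class mean of the 4 libraries (538 ± 405 CPM, SD, n = 4), followed by *Ghrh*-gated neurons (148 ± 129 CPM). The log2 fold change over the other neurons was 3.26 (SE 0.19; edgeR, adjusted p = 1.47e-20), with 5.41% of genes called in this contrast. It passed under all 12 alternatives and was 3.67 without DOCA-salt 2. *Tac2* had a UMI in 67.4%, 23.1%, 40.0% and 68.9% of KNDy-type nuclei. All 4 libraries lay above their own level in the other neurons, with DOCA-salt 2 the lowest.

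*Tacr3* was at 96.6, 0, 24.9 and 34.0 CPM in KNDy-type neurons and had a UMI in 28.0%, 0%, 20.0% and 22.0% of the nuclei. The log2 fold change was 2.37 (SE 0.26; edgeR, adjusted p = 5.59e-10), and the adjusted p ran from 4.47e-28 to 0.751 over 12 alternatives, not passing with DESeq2 or without the library block. Without DOCA-salt 2 it was 2.83. DOCA-salt 2 was low in other genes of these neurons too. Its 39 KNDy-type nuclei held *Rxfp1*, a relaxin receptor and a gate gene, at 10.3 CPM against 228, 38.5 and 223 CPM in the other libraries, and *Tbx3*, a transcription factor that is no gate gene, at 6.88 CPM against 138, 72.4 and 117 CPM. Both were also low in its neurons outside the gate, *Tbx3* at 1.51 CPM against 69.8, 20.0 and 52.7 CPM and *Rxfp1* at 1.08 CPM against 11.1, 5.78 and 14.5 CPM. *Pdyn* was at 305, 230, 195 and 335 CPM. Treatment did not pass in this class for *Tac2* (log2 difference 0.33, SE 0.64) or *Tacr3* (0.99, SE 0.73). *Tac1* was lower than in the other neurons (−1.23, SE 0.14; edgeR, adjusted p = 3.25e-10), at 133, 134, 124 and 31.1 CPM. DOCA-salt 2 went the other way, above the *Tac1* level of its neurons as a whole. In the other libraries the KNDy-type level of *Tac1* lay under the glial background.

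*Tacr3* was also higher in neurons gated on *Pmch*, the precursor of melanin-concentrating hormone, mainly in 1 pool. The *Pmch* gate had at least 10 nuclei in 2 libraries, DOCA-salt 1 with 13 nuclei and 68.1 CPM and DOCA-salt 2 with 323 nuclei and 223 CPM. The log2 fold change over the other neurons of these libraries was 4.33 (SE 0.24; edgeR, adjusted p = 2.49e-67), with 1.2% of genes called, and it passed in all 9 alternatives that could be fitted. Fits without a Sham pool used the same 2 libraries as this fit, and none could be made without DOCA-salt 1 or DOCA-salt 2. The 9 passes therefore do not show how far the call rests on a single pool. *Tacr3* had a UMI in 45.2% of *Pmch*-gated nuclei of DOCA-salt 2 and in 1 of 13 of DOCA-salt 1. Sham 2 had 6 *Tacr3* UMIs in 7 *Pmch*-gated nuclei (126 CPM), and Sham 1 had 0 in 4. Since 323 of 347 gated nuclei came from 1 pool, treatment could not be compared in this class. *Pmch*-gated neurons also had less *Tac2* than the others (−1.0, SE 0.25; edgeR, adjusted p = 0.00961). A further gate with *Tacr3* was the cholinergic list (*Chat*, *Slc5a7*, *Slc18a3*) of DOCA-salt 1. Its 49 nuclei had *Tacr3* at 61.2 CPM (21 UMIs), with 32.7% of them positive. No other library had 10 nuclei in that gate, so it was not tested.

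The share of the UMIs of both genes that these gates held differed between the pools. KNDy-type nuclei were 2.29%, 1.59% and 1.70% of the nuclei of DOCA-salt 1, Sham 1 and Sham 2 and carried 40.7%, 8.92% and 25.3% of their *Tac2* UMIs. They also carried 20.8%, 9.40% and 14.9% of the *Tacr3* UMIs of these libraries. In DOCA-salt 2 the KNDy-type gate held 1.00% of the *Tac2* UMIs and none of the *Tacr3* UMIs. In DOCA-salt 2, *Pmch*-gated nuclei were 1.71% of the nuclei and carried 35.9% of the *Tacr3* UMIs, against 1.43%, 0% and 2.55% in DOCA-salt 1, Sham 1 and Sham 2. Neurons outside every gate carried 22.6%, 61.0%, 44.6% and 28.7% of the *Tac2* UMIs.

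**Figure D3:**
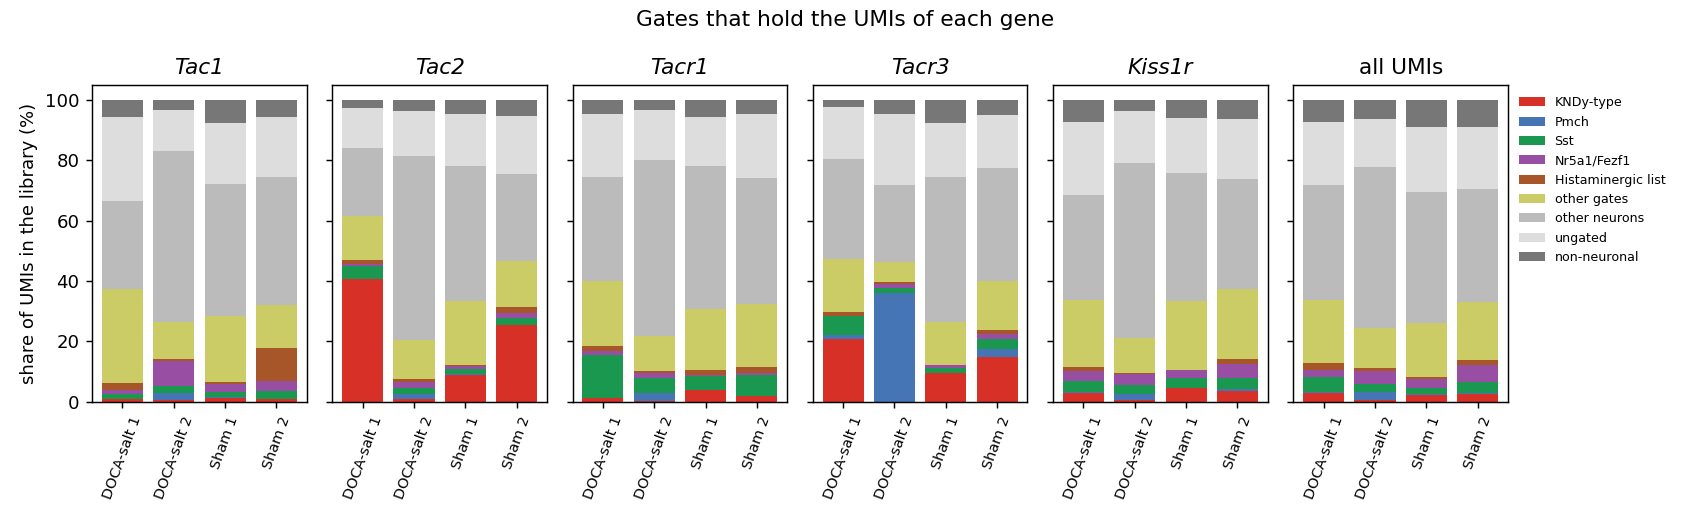
Share of each gene's UMIs (y axis, % of the library's UMIs of that gene) held by nuclei of each gate, per library (x axis), with all UMIs of the library in the last panel. KNDy-type nuclei carried 40.7% of *Tac2* UMIs in DOCA-salt 1 and *Pmch*-gated nuclei 35.9% of *Tacr3* UMIs in DOCA-salt 2.

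*Tacr1* was higher in neurons gated on *Sst*, the somatostatin gene, at 48.3, 26.4, 34.7 and 28.8 CPM, with 18.8%, 12%, 20.5% and 18.1% of the nuclei positive. The log2 fold change over the other neurons was 1.14 (SE 0.15; edgeR, adjusted p = 2.39e-05), with 1.98% of genes called, and it passed in 11 of 12 alternatives, the exception being the fit without the library block. All 4 libraries lay above both their other neurons and their glia. *Ghrh*-gated neurons, which make growth hormone-releasing hormone, had *Tacr1* at 34.6, 13.6, 38.9 and 22.4 CPM (log2 fold change 0.75, SE 0.24; edgeR, adjusted p = 0.0283; 6.05% of genes called). That call held in 4 of 12 alternatives, over which its adjusted p ran from 0.0132 to 0.615. Leaving out DOCA-salt 1, Sham 1 or Sham 2 each ended it, with log2 fold changes of 0.53, 0.69 and 0.88. *Tac2* was called higher in *Ghrh*-gated neurons as well, at 99.1, 81.4, 340 and 70.1 CPM (0.61, SE 0.12; edgeR, adjusted p = 2.70e-05), but without Sham 1 the log2 fold change was 0.10 and did not pass. The *Tacr1* means of the *Sst* gate (34.6 ± 9.8 CPM, SD, n = 4) and the *Ghrh* gate (27.4 ± 11.5 CPM) lay within their spread of each other. In DOCA-salt 1 *Tacr1* reached 114 CPM in 49 nuclei of the cholinergic list (39 UMIs), which had no counterpart of 10 nuclei in another library.

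*Tacr1* was also higher in GABAergic than in glutamatergic neurons, at 19.6, 20.8, 22.0 and 18.1 CPM against 13.1, 7.87, 12.3 and 15.4 CPM. The 4 GABAergic values lay above all glutamatergic ones (log2 fold change 0.76, SE 0.19; edgeR, adjusted p = 0.0363; 7.98% of genes called), and over 12 alternatives the adjusted p ran from 0.00102 to 0.230, passing in 8. It did not pass without DOCA-salt 2 (0.47) or without Sham 1 (0.74). Neurons gated on *Nr5a1* or *Fezf1*, genes of the ventromedial hypothalamus, were low in *Tacr1*, *Tac2* and *Tacr3*. *Tacr1* was at 8.44, 5.41, 1.64 and 1.85 CPM there (−1.94, SE 0.26; edgeR, adjusted p = 1.13e-06), *Tac2* fell by 1.63 (SE 0.12) and *Tacr3* by 1.82 (SE 0.30) on the log2 scale, with 15.2% of genes called in this contrast. For each of these 3 genes the levels lay at or under the glial level in at least 3 libraries.

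*Tac1*, the substance P and neurokinin A gene, was lower than in the other neurons in 8 of the 15 classes. Its highest levels in the gates shown here were in a few nuclei. In 20 nuclei of DOCA-salt 1 with *Slc6a3*, the dopamine transporter gene, but no *Th*, *Tac1* was at 2229 CPM, and 4 such nuclei of Sham 1 gave 2304 CPM. Larger gates also held it, with a wide spread between pools. The 483 nuclei of the *Rreb1* list (*Rreb1*, *Kcnh3*, *Syt6*, *Bcl11b*) had *Tac1* at 108 to 862 CPM (mean 344 ± 352 CPM, SD, n = 4). The 3076 glutamatergic neurons had it at 88.8 to 787 CPM (354 ± 308 CPM).

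Neurons of the histaminergic list (*Hdc*, *Slc18a2*, *Maob*) had *Tac1* at 492, 128, 224 and 525 CPM, with 64.7%, 36.4%, 81.8% and 65.3% of the nuclei positive (log2 fold change 0.99, SE 0.09; edgeR, adjusted p = 8.03e-27; 6.61% of genes called). The call rested on Sham 2, without which the log2 fold change was 0.18 and the adjusted p, which ran from 3.07e-36 to 0.843 over 12 alternatives, no longer passed. Of the 8 classes in which *Tac1* was lower, *Agrp*/*Npy*-gated neurons had 108, 67, 137 and 49.3 CPM and *Pomc*-gated neurons 81.9, 65.6, 111 and 62.3 CPM. These are the feeding neurons of the ARC, and in DOCA-salt 1 and Sham 1 their *Tac1* lay under the glial background while in the other pools it was close to it.

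*Kiss1r* showed no class above the rest. Its class means in classes with 10 nuclei in all 4 libraries reached 11.3 ± 5.5 CPM (SD, n = 4) in *Oxt*/*Avp*-gated neurons and 10.4 ± 3.9 CPM in KNDy-type neurons, which did not differ beyond their spread. In the 19 *Gnrh1*-gated nuclei of Sham 2, the target cells of kisspeptin, it had 5 UMIs in 4 nuclei, or 28.5 CPM, against 6.89 CPM in the other neurons of that library. In 49 nuclei of the cholinergic list of DOCA-salt 1 it had 8 UMIs in 8 nuclei, or 23.3 CPM, against 6.36 CPM in the neurons of that library. Each of these 2 values stands on 1 pool and was not tested.

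**Figure D4:**
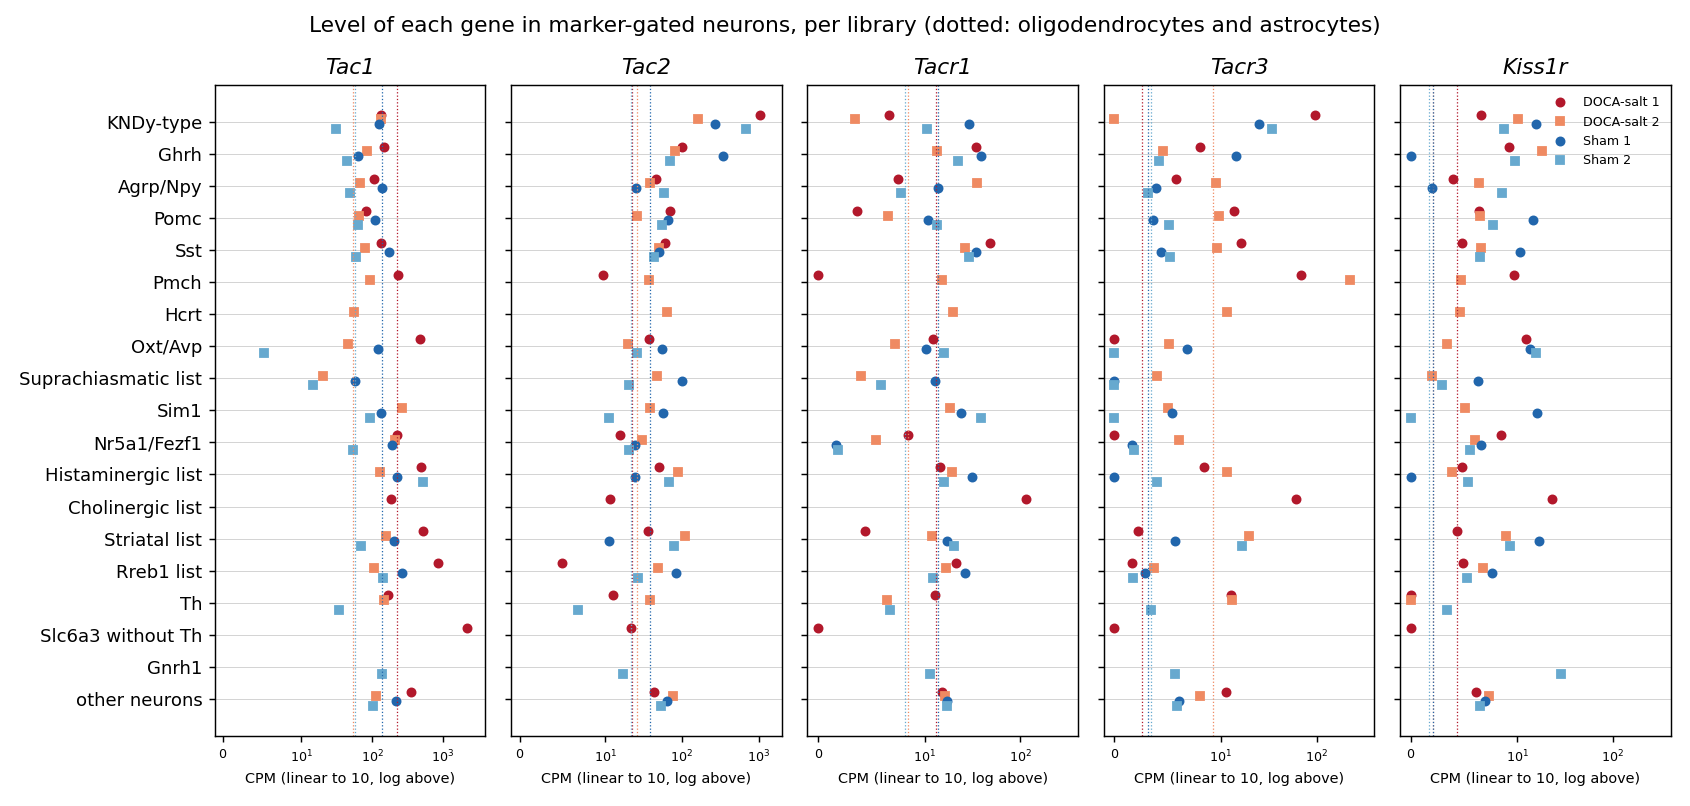
Level of each gene (x axis, CPM, linear to 10 and logarithmic above) in gated neurons (y axis), with 1 point per library with at least 10 nuclei in the gate and dotted lines for oligodendrocytes with astrocytes of each library. *Tac2* in KNDy-type neurons (162 to 1043 CPM), *Tacr3* in *Pmch*-gated neurons (68.1 and 223 CPM) and *Tac1* in 20 nuclei of DOCA-salt 1 with *Slc6a3* but no *Th* (2229 CPM) lie farthest to the right.

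Nuclei were last gated on the genes themselves, to ask which of them share a nucleus. The gates asked for at least 3 UMIs of a ligand (*Tac1* or *Tac2*) or 2 of a receptor (*Tacr1* or *Tacr3*). Like the class gates, they also asked for 5 times the amount expected from the glial level. They gave 572, 659, 80 and 219 *Tac1*-gated and 247, 443, 62 and 195 *Tac2*-gated neurons. The receptor gates gave 70, 99, 50 and 70 *Tacr1*-gated and 62, 123, 11 and 28 *Tacr3*-gated neurons, as many as had 2 UMIs. For *Tac1* the glial rule mattered. In Sham 1, 181 neurons outside every class gate had at least 3 *Tac1* UMIs, against 80 *Tac1*-gated neurons in all. Neurons that met only the UMI rule were counted with the other neurons. Against the other neurons, with library as a block, 4 of 16 tests of the other members passed in edgeR, where 0.91% of all genes passed over the 4 gates.

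*Tacr3* had a UMI in 40.1%, 6.55%, 17.7% and 22.1% of *Tac2*-gated neurons, against 3.26%, 4.00%, 4.74% and 2.50% of the other neurons. Its level there was 92.4, 13.4, 15.1 and 23.8 CPM (log2 fold change 1.79, SE 0.41; edgeR, adjusted p = 0.0469), highest in DOCA-salt 1, and over 12 alternatives the adjusted p ran from 4.55e-17 to 1, passing in 6. It did not pass without DOCA-salt 1 (0.96), Sham 1 (1.82) or Sham 2 (1.64). In the other direction *Tac2* had a UMI in 64.5%, 18.7%, 54.5% and 35.7% of *Tacr3*-gated neurons against 8.36%, 9.37%, 25% and 15% of the others. Its level was 803, 73.1, 435 and 313 CPM (log2 fold change 2.17, SE 0.23; edgeR, adjusted p = 1.13e-08), passing in 10 of 12 alternatives with adjusted p from 4.07e-130 to 0.158. DOCA-salt 2 was the lowest library both times. There, 80 of the 123 *Tacr3*-gated neurons were in the *Pmch* gate and 0 in the KNDy-type gate, whereas 26 of 62 in DOCA-salt 1 were KNDy-type.

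Median depth also differed between gated and other neurons. *Tac2*-gated neurons had medians of 4196, 5707, 13355.5 and 9492 UMIs. The plain count of neurons with both *Tac2* and *Tacr3* was 134, 84, 27 and 58, against 26.5, 48.2, 17.9 and 22.0 from the product of their shares. 9 of the 10 pairs that do not include *Kiss1* lay above that product in all 4 libraries. At 1000 UMIs a nucleus 0 pairs did, and *Tac2* with *Tacr3* was then in 28, 3, 0 and 4 neurons against 3.55, 5.01, 0.258 and 1.39. Most products in Sham 1 were then under 1, down to 0.0498 for *Tacr3* with *Kiss1r*. A count of 0 was likely there in any case, so Sham 1 cannot decide whether such pairs share nuclei at equal depth. *Tac1* with *Tac2* had larger products, 49.474, 37.999, 8.438 and 12.752, and was in 30, 50, 5 and 8 neurons. In DOCA-salt 2, *Tac1* with *Tacr1* was in 11 neurons against 14.8 and *Tac1* with *Tacr3* in 6 against 8.53. *Tac1* with *Tac2*, *Tac1* with *Kiss1r* and *Tac2* with *Tacr1* lay above their products in that library. These differences were not tested.

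*Tac1* was not higher in neurons gated on the substance P receptor. *Tac1* had a UMI in 50.0%, 21.2%, 62.0% and 24.3% of *Tacr1*-gated neurons and in 32.7%, 17.3%, 60.3% and 19.9% of the others. Its level in the gated neurons was 326, 71.3, 173 and 77.4 CPM, a log2 fold change of −0.41 (SE 0.08; edgeR, adjusted p = 0.00125), with adjusted p from 5.71e-06 to 1 over 12 alternatives and no call without DOCA-salt 2 (−0.35). *Tac1* was also lower in *Tacr3*-gated neurons (−0.48, SE 0.13; edgeR, adjusted p = 0.0427), a call that held in 5 of 12 alternatives with adjusted p from 0.00583 to 1 and not without Sham 2 (−0.34). The tests of *Tac1* with *Tac2* did not pass. *Tac2* was in 4.90%, 18.4%, 20.0% and 13.2% of *Tac1*-gated neurons against 9.30%, 8.96%, 25.6% and 15.3%, higher in DOCA-salt 2 and lower in the other libraries.

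**Figure D5:**
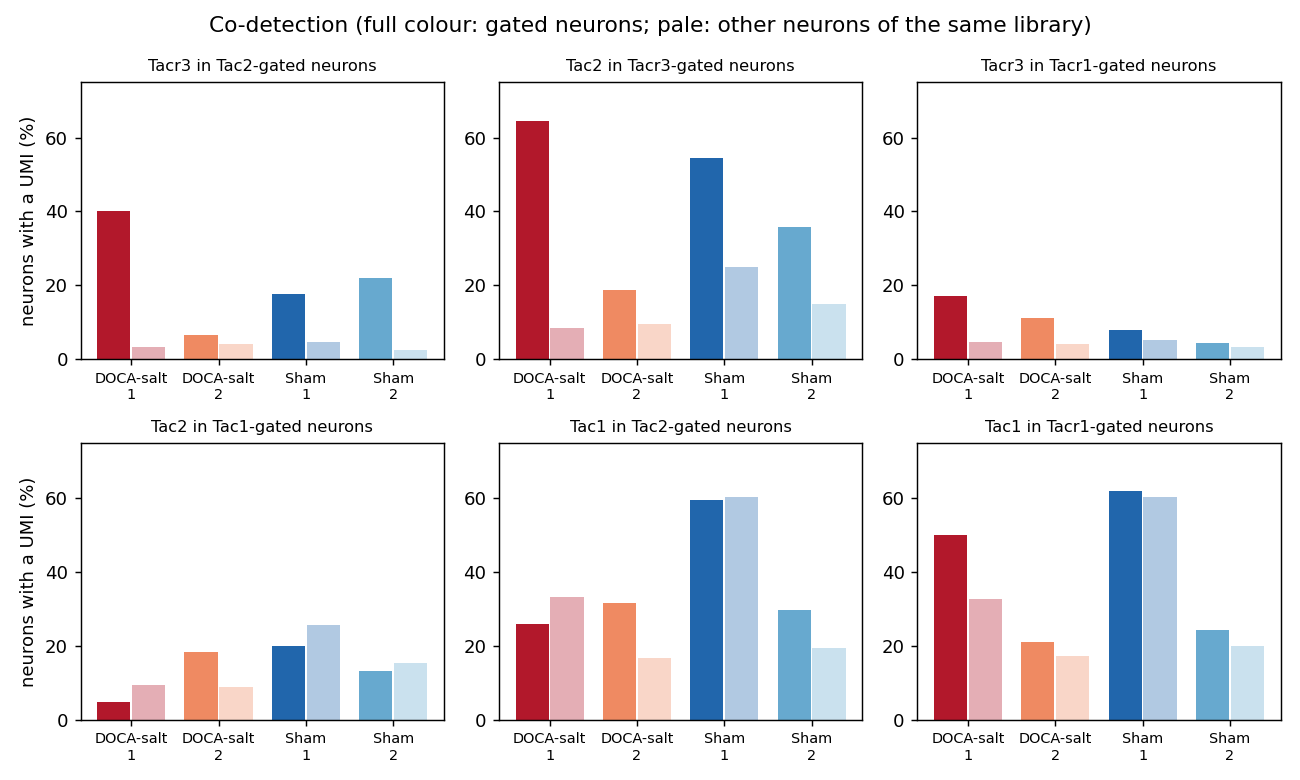
Share of neurons with at least 1 UMI of a second gene (y axis, %, from 0), in neurons gated on a first gene (full colour) and in all other neurons of the library (pale), for 6 pairs. *Tacr3* was in 40.1% of *Tac2*-gated neurons of DOCA-salt 1 against 3.26% of the others, and the bars of *Tac1* in *Tacr1*-gated neurons stand close to their pale partners except in DOCA-salt 1.

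The list of KNDy partners was chosen with earlier results of these data known, so its counts below are description and no independent support. In *Tac2*-gated neurons 10 of the 13 partner genes of KNDy neurons were higher and 0 lower (edgeR, adjusted p under 0.05), against 0.74% of all genes higher. Among them were *Rxfp1* (log2 fold change 2.78, SE 0.30), *Nr5a2*, a nuclear receptor (2.48, SE 0.31), *Nhlh2*, a transcription factor (1.83, SE 0.33), *Esr1* (1.5, SE 0.16), *Pdyn* (1.25, SE 0.26), *Prlr*, the prolactin receptor (0.96, SE 0.18), *Tbx3* (0.65, SE 0.10), *Pgr*, the progesterone receptor (0.63, SE 0.13), and *Oprk1* (0.58, SE 0.08). The pools were not alike in this. *Pdyn* was at 211, 34.8, 88.3 and 177 CPM in *Tac2*-gated neurons against 64.6, 47.7, 35.6 and 62.0 CPM in all neurons, so DOCA-salt 2, which gave 443 of these nuclei, went the other way. *Esr1* was at 121, 24.4, 54.6 and 94.4 CPM against 30.9, 13, 28.1 and 41.7 CPM, higher in each pool. Of the remaining pathway genes, *Plcb4* (−0.38) and *Pcsk2*, a prohormone convertase (−0.35), were lower, against 0.491% of all genes. *Tacr3*-gated neurons had 6 of the 13 partners higher, against 0.86% of all genes, with *Rxfp1* (2.34, SE 0.28) and *Nr5a2* (1.92, SE 0.34) leading. DOCA-salt 2, with 123 of these nuclei, again went the other way, with *Pdyn* at 27.0 CPM and *Esr1* at 7.15 CPM, while in the other pools *Pdyn* was at 140 to 181 CPM and *Esr1* at 85.8 to 130 CPM. The *Tacr3*-gated neurons were also higher in *Pcsk2* (0.83, SE 0.20), *Pcsk1*, another convertase (0.79, SE 0.17), and *Qpct*, which forms pyroglutamate at peptide ends (0.75, SE 0.15). *Tac1*-gated neurons had 2 partners lower, *Pdyn* (−0.87, SE 0.11) and *Esr1* (−1.0, SE 0.15), against 0.235% of all genes, and *Tacr1*-gated neurons had *Pdyn* (−0.58), *Tbx3* (−0.86) and *Pam*, which amidates peptides (−0.29), lower, against 0.269%.

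Whether treatment moved a gene differently in a class than in the other neurons was tested as an interaction in 12 classes. Of 60 tests 3 passed, each for *Tac1*, where 0.0291% of all genes passed, and each was lost when a single pool was left out. The classes were *Agrp*/*Npy*-gated (−0.98, SE 0.22), *Pomc*-gated (−1.29, SE 0.21) and histaminergic-list neurons (−1.59, SE 0.18), where a negative value means that DOCA-salt minus Sham was lower in the class than in the other neurons. The *Tac1* levels of the first 2 classes, given above, lay under or close to the glial background.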

How the data were processed

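Nuclei of the ARC were profiled with 10x 3′ chemistry, and the authors made the deposited counts, raw UMI counts per gene and barcode, with Cell Ranger 3.0.1 on mm10. The authors do not state whether intronic reads were counted. Their mapping figures list intronic reads apart from reads mapped to the transcriptome. The members and gene lists were chosen with earlier results of these data known, and gate thresholds were set after the data were seen. Kept nuclei had over 200 and under 7000 genes, under 25000 UMIs and under 15% mitochondrial UMIs. Scrublet marked 0, 0, 2 and 0 doublets, too few for the caller to have worked, so the marked nuclei were kept, and nuclei with high scores were left out as an alternative. Counts were summed per library and set and tested in edgeR 4.0.16 (quasi-likelihood, TMM, filterByExpr, Benjamini-Hochberg over all genes; R 4.3.3), with DESeq2 1.42.0 as an alternative. Replicates are pools, and edgeR estimates the spread between them with information shared across genes. With so few pools, an SE or p-value does not measure the spread of that gene alone. Intervals are exact Poisson at 95%. Replicate numbers in the labels do not pair pools. The 6 members, the pathway list and the gate genes a result rests on are named. In simulated counts for neurons, 96% of 100 genes changed 4-fold and 27% of those changed 2-fold were recovered. There 7 unchanged genes passed, all genes shared a common dispersion of 0.0482, and the pools did not differ in cell content. The recovery therefore does not carry over to the measured pools, which did differ. The results for 1 gated class and 1 partner gene, which enter the counts over classes and lists, are not reported here.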

Additional observations from a re-analysis of the deposited data

Results flagged for a closer look

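*Tac1* differed between classes in how DOCA-salt compared with Sham, tested as the interaction of class and treatment in edgeR with adjustment over all genes. Against the other neurons the log2 difference was −0.98 (SE 0.22, adjusted p = 0.0431) in *Agrp*/*Npy*-gated neurons, −1.29 (SE 0.21, adjusted p = 3.62e-06) in *Pomc*-gated neurons and −1.59 (SE 0.18, adjusted p = 7.68e-15) in neurons of the histaminergic list. Without DOCA-salt 1 the first 2 were 0.05 and −0.04 (adjusted p = 0.988 and 0.989), and without Sham 2 the *Pomc* value was −1.03 (adjusted p = 0.501). Without Sham 2 the *Agrp*/*Npy* value was −1.03 (adjusted p = 0.991) and without Sham 1 it was −0.77 (adjusted p = 1). Without Sham 2 the histaminergic value was 0.29 (adjusted p = 0.947). DOCA-salt 1 had the highest *Tac1* of the 4 libraries in neurons outside every gate, at 350 CPM against 114, 215 and 103, and also in oligodendrocytes and astrocytes, at 225 CPM against 53.6, 140 and 58.0. The part of that level in the first 2 results was not tested.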

How the results depend on the processing

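With 2 pools a group, no gene passed the treatment tests in all nuclei or in neurons, *Gnrh1* at a log2 difference of −4.02 in neurons included. Changes in the members could therefore be missed, and *Kiss1* could not be measured. Of 87 values that summarise a comparison under an alternative, 64 stayed as reported, as did 442 of 554 values for single genes, of which 103 lost and 7 gained their call. The 2 that turned direction were *Tac1* interactions, at 0.05 in *Agrp*/*Npy*-gated neurons without DOCA-salt 1 and 0.287 in histaminergic-list neurons without Sham 2. Without a pool these ranged from −1.18 to 0.05 and from −2.432 to 0.287. The number of members called for treatment, 0 in all nuclei and in neurons, became 1 in each with DESeq2 and with a crossed replicate block, and 0 to 1 when a pool was left out. Within gated classes 0 became 4 without the low-count filter, and some passed when a pool was left out. The shares of all genes called with DESeq2 and in those class fits are not given here, so these counts are no result about the members. For the pathway genes 0 became 3 with the crossed replicate block and 0 to 11 without a pool, 11 of them without DOCA-salt 1. The 31 calls between classes became 12 with DESeq2 and 5 without the library block. The 4 calls in nuclei gated on a member became 7 without the low-count filter, 1 with DESeq2, 0 without the library block and 2 to 5 without a pool. The shares of all genes called in these alternatives between classes and gates are not given here either. Whether the changes concern the members or all genes can therefore not be told. The 9 pairs above the product of their shares became 0 at 1000 UMIs a nucleus and 4 at 2 UMIs. At 1000 UMIs most products in Sham 1 were under 1, but some pairs also fell under the product in DOCA-salt 2. The cause was not tested. Over all genes, leaving out DOCA-salt 1 gave 1871 calls in neurons and DOCA-salt 2 gave 181, against 0. The replicate block by number called 0 members and 3 of 15860 genes in neurons. Deviations of same-numbered pools correlated at −0.258 across 15860 genes, which are not independent, and the crossed pairing, added after the data were seen, called 214 genes in neurons and 58 in all nuclei.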

Other observations

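*Tac1* was also counted in cells that are not neurons. Oligodendrocyte precursors (58, 79, 31 and 55 nuclei) had it at 842, 74.7, 171 and 73.1 CPM in DOCA-salt 1, DOCA-salt 2, Sham 1 and Sham 2. Tanycytes, the glia that line the third ventricle, had it at 446, 30.7, 110 and 17.0 CPM. These values rest on 140, 4, 6 and 39 tanycytes, and the DOCA-salt 2 value lies under the level of 3 UMIs there (92.0 CPM). In oligodendrocyte precursors DOCA-salt 1 was highest and Sham 1 next, as in neurons. For tanycytes DOCA-salt 2 and Sham 1 had too few nuclei to rank the libraries.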
